A study of Mus musculus with 16 samples.

Results

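The GABA-B receptor and its auxiliary subunits were followed through 6 genes, the receptor subunit genes Gabbr1 and Gabbr2 and the auxiliary subunit genes Kctd8, Kctd12, Kctd12b and Kctd16, out of 24411 genes in the count table. They were taken by gene symbol, and all 6 have a row in both tables. The set was put together with values of these same libraries in view, so the levels and fold changes of the 6 genes are given as descriptions, without p-values. The libraries came from the Th-MYCN mouse, line Tg(Th-MYCN)41Waw on a 129/SvJ background, in which the rat tyrosine hydroxylase promoter drives human MYCN in neuroectodermal cells and neuroblastoma arises in sympathetic ganglia. Mice carrying a Runx1t1 knock-out allele (CBB6-Runx1t1tm1Fc/H) had been crossed into the line, and the study asked how loss of 1 Runx1t1 allele changes the ganglia in which tumors begin. RNA sequencing covered 16 libraries in 5 groups.

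Celiac ganglia (spelled Coelic in the labels) were taken from mice of 2 weeks and cleaned of other tissue. Transgene-free ganglia were MYCN wild-type and made up 4 libraries with wild-type Runx1t1 and 3 labelled Runx1t1 heterozygote. MYCN ganglia were homozygous for the transgene and made up 3 libraries with wild-type Runx1t1 and 2 labelled Runx1t1 heterozygote. The 4 tumor libraries came from mice homozygous for the transgene with wild-type Runx1t1, of an age that the sources used here do not give, so age and tumor cannot be told apart. Here "het" stands for a library labelled Runx1t1 heterozygote, since Runx1t1 RNA itself did not separate the labelled genotypes. Nothing in the labels says that libraries of a group came from separate animals, so errors and p-values measure the spread between these libraries only.

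The GABA-B receptor is the metabotropic receptor for the inhibitory transmitter GABA. It works as an obligatory pair, in which the Gabbr1 product binds GABA and the Gabbr2 product carries the first subunit to the cell surface and couples to Gi/o proteins. The released G protein subunits close presynaptic calcium channels, open inwardly rectifying potassium (GIRK) channels and restrain adenylyl cyclase. The Kctd8, Kctd12, Kctd12b and Kctd16 proteins bind the tail of the Gabbr2 product and the G protein, and shape how fast the response starts and how far it desensitizes, with Kctd12 known for strong desensitization and Kctd16 for a sustained response and for tying the receptor to other membrane proteins.

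The stretches of DNA just before the starts of 4 of the 6 genes are shown because RNA of all 4 was lower in tumors, so that a reader can see what lies at the promoters of genes that were lower together. They were read from RefSeq promoter entries on GRCm38.p6, cut to the bases before the first base of the gene in both RefSeq and GENCODE, and are written 5′ to 3′ on the strand of the gene, with motif matches in capitals. No window is shown for Kctd12b or Kctd16. The windows are chr17:37045716-37045965 on the plus strand for Gabbr1, chr4:46991874-46991964 on the minus strand for Gabbr2, chr5:69341710-69341959 on the minus strand for Kctd8 and chr14:102982638-102982887 on the minus strand for Kctd12.
Gabbr1: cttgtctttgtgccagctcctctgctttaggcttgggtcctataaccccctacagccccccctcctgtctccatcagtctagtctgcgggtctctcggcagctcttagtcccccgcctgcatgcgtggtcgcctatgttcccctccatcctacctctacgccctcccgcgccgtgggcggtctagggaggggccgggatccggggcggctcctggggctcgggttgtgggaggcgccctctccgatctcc
Gabbr2: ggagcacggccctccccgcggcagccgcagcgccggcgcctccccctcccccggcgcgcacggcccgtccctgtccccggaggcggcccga
Kctd8: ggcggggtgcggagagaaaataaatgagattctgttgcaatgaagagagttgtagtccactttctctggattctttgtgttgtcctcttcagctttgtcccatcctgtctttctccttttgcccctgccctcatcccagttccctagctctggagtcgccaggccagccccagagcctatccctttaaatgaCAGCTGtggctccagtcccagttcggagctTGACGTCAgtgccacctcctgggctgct
Kctd12: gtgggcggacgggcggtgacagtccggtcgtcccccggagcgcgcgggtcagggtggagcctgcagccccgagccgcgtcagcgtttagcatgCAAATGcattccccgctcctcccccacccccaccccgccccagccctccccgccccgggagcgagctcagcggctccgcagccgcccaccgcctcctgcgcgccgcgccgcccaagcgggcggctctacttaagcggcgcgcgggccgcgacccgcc
The 4 windows were searched on both strands for CACGTG, the E-box bound by MYC and MAX, for CANNTG, the general E-box of which CACGTG is a special case, for TGACGTCA, the cyclic AMP response element, and for TGTGGT, a RUNX site. None of the 4 windows held CACGTG or TGTGGT, which 6.02% and 14% of 32841 mouse promoters hold over 250 bases, and 1.56% and 5.44% over 91 bases. The Kctd8 window held CAGCTG, a general E-box, at 58 to 53 bases before its end, and TGACGTCA at 28 to 21 bases before its end. The Kctd12 window held CAAATG, again a general E-box, at 157 to 152 bases before its end. General E-boxes are common, in 66.2% of promoters over 250 bases and 33.6% over 91, while the cyclic AMP response element was in 1.55% and 0.131%. The windows of Gabbr2 and Kctd12 were the richest in G and C, at 85.7% and 77.6%, against 66% for Gabbr1 and 53.6% for Kctd8. A match is a run of letters and not a measured binding site, and a window without a match says nothing of the factor.

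Library totals ran from 10692299 to 38618757 counts, and 6 libraries, all from ganglia, were under 20000000. These were the ganglion replicates numbered 1 or 2, while those numbered 3 or 4 were all above. Both MYCN het libraries were in the low set, at 14221960 and 12367963 counts. In contrasts with MYCN het ganglia, depth and group thus cannot be fully told apart. The labelled tissue was checked against 14 sympathetic neuron markers, Th and Dbh among them, and all 14 had counts in every library. Their summed level was 8986 to 27514 TPM in ganglia and 2705 to 4058 TPM in tumors, where TPM is a transcript level scaled by gene length and depth. Against transgene-free ganglia, 12 of the 14 were called lower in tumors and 1 higher, and 10 of 10 glial markers were called lower and 9 of 9 markers of dividing cells higher (edgeR, adjusted p under 0.05). A pair of ganglion libraries stood apart. Transgene-free wild-type replicate 2 had 1023 TPM of lymphocyte markers, against 3.86 to 21.3 TPM in the other libraries, 2267 TPM of myeloid markers, against 62.9 to 439.7 TPM in the other ganglia and 391.9 to 1210 TPM in tumors, and 9553 TPM of neuron markers. Fibroblast markers summed to 892.1 to 7934 TPM in ganglia and 173.8 to 512.4 TPM in tumors. MYCN wild-type replicate 1 had 1321 TPM of dividing-cell markers, against 1569 to 1959 TPM in tumors and 68.7 to 693.7 TPM in the other ganglia, with 8986 TPM of neuron markers. Where tumor and ganglion ranges overlapped only through these libraries, this is stated where the ranges are described. Other ranges and counts include both libraries unless stated otherwise.

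Gabbr1, which lies at chr17:37045966-37075067 on the plus strand of GRCm38, encodes the GABA-binding subunit and had the highest mean TPM of the 6 genes in each ganglion group. In transgene-free wild-type ganglia its level was 224, 86.3, 155 and 211 TPM in replicates 1 to 4, and in transgene-free het ganglia 193, 248 and 198 TPM. In MYCN ganglia it was 86.8, 163 and 159 TPM with wild-type Runx1t1 and 239 and 178 TPM in het. In tumors it was 58.3, 22.3, 21.1 and 32.9 TPM. Every tumor was below every ganglion library, and the lowest ganglion libraries were the 2 that stood apart. The order of group means was transgene-free het at 212.7 ± 30.3 (SD, n = 3), MYCN het at 208.4 ± 43.2 (n = 2), transgene-free wild-type at 169 ± 62.8 (n = 4), MYCN wild-type at 136.5 ± 43.0 (n = 3) and tumor at 33.7 ± 17.3 TPM (n = 4). Neighbours in this order overlapped in range, apart from the step to the tumors. In these bulk libraries fewer cells of a type and less RNA per cell cannot be told apart.

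Gabbr2 encodes the partner that couples the receptor to G proteins and lies at chr4:46662305-46991873 on the minus strand. Its level was 60.1, 17.8, 24.8 and 52.1 TPM in transgene-free wild-type ganglia and 47.3, 57.9 and 38.7 TPM in transgene-free het ganglia. MYCN wild-type ganglia had 22.2, 24.9 and 25.8 TPM and MYCN het ganglia 51.4 and 39.8 TPM. Tumors had 11.5, 14.1, 10 and 8.47 TPM. The tumors again lay below all ganglia. The gap was narrow, from 14.1 TPM in the highest tumor to 17.8 TPM in the lowest ganglion library. That library was transgene-free wild-type replicate 2, among the 2 that stood apart. Without those 2 libraries the lowest ganglion was at 24.8 TPM. The 3 MYCN wild-type libraries were close together and all below the 3 transgene-free het and the 2 MYCN het libraries, while the transgene-free wild-type libraries lay on both sides of them. The order of means was the same as for Gabbr1, at 47.97 ± 9.58, 45.6 ± 8.24, 38.7 ± 20.5, 24.3 ± 1.89 and 11 ± 2.38 TPM (SD, n as above), and only the step from MYCN wild-type to tumor had no overlap.

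The balance of the receptor pair differed more among tumors than among ganglia. Gabbr2 was 13.2% to 21.1% of the summed TPM of Gabbr1 and Gabbr2 in the 12 ganglia. In tumors it was 16.4%, 38.7%, 32.1% and 20.5% in replicates 1 to 4. Tumor replicates 2 and 3 were thus above every ganglion library and the other tumors were inside the ganglion range. The same values read as a ratio were 3.73 to 6.57 Gabbr1 transcripts for each Gabbr2 transcript in ganglia, and 5.09, 1.59, 2.11 and 3.88 in tumors. The receptor pair summed to 217 ± 66.3 TPM in ganglia (SD, n = 12) and 44.7 ± 17.3 TPM in tumors (n = 4).

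**Figure D1:**
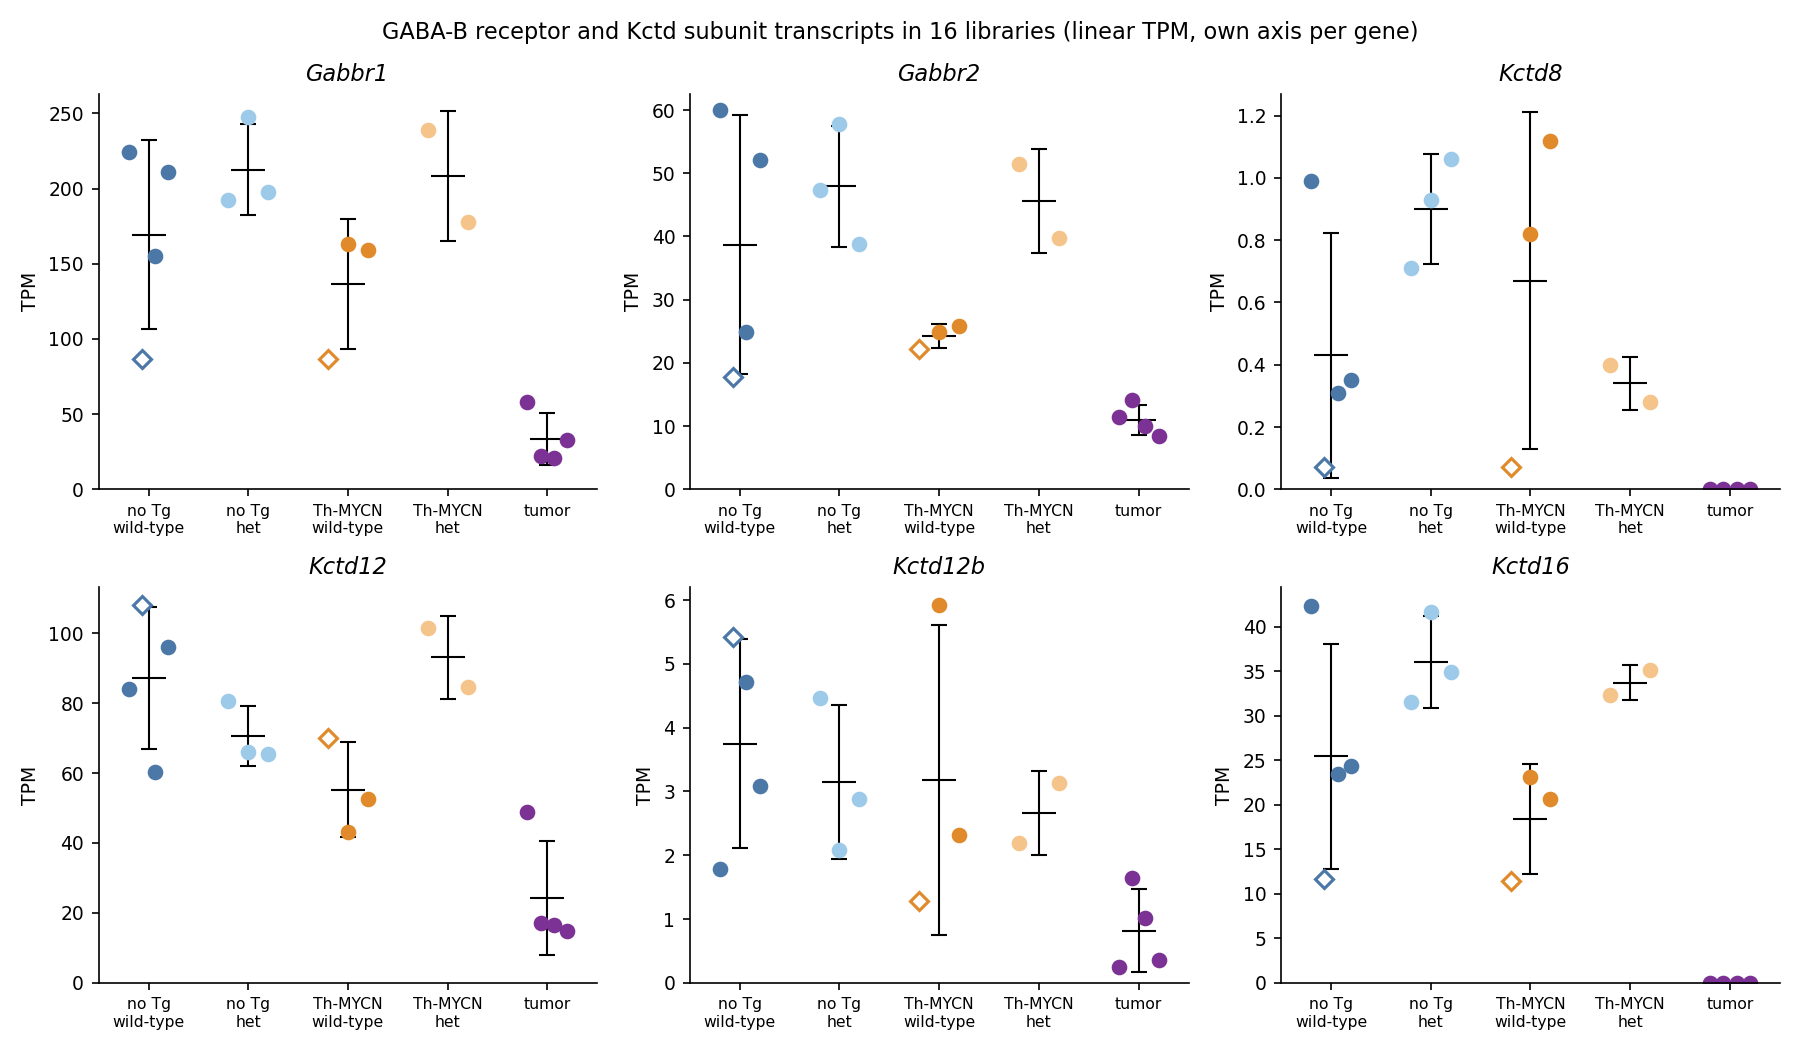
Level of each of the 6 genes in TPM (vertical axis, linear, own scale in each panel) in the 5 groups, with 1 point a library, bars for the group mean and lines for the SD, and open diamonds for the 2 libraries that stood apart. The 4 tumors sit at 21.1 to 58.3 TPM for Gabbr1, below every ganglion library, and at 0 for Kctd8 and Kctd16.

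Kctd12, at chr14:102976581-102982637 on the minus strand, encodes the subunit known for fast desensitization and was the most abundant of the 4 Kctd genes in every library. It had 84.0, 108.2, 60.4 and 96.0 TPM in transgene-free wild-type ganglia and 80.5, 66.1 and 65.3 TPM in transgene-free het ganglia. MYCN wild-type ganglia had 70.1, 43.2 and 52.7 TPM and MYCN het ganglia 102 and 84.7 TPM. Tumors had 48.8, 17.0, 16.4 and 14.9 TPM. Tumor replicate 1 was about level with the lowest ganglia, above MYCN wild-type replicate 3, and the other 3 tumors were below all ganglia. The library with the highest Kctd12 was transgene-free wild-type replicate 2, the one with the lymphocyte and myeloid markers and the lowest Gabbr1 and Gabbr2 of its group. The order of group means was MYCN het at 93.1 ± 11.9, transgene-free wild-type at 87.1 ± 20.4, transgene-free het at 70.7 ± 8.57, MYCN wild-type at 55.3 ± 13.6 and tumor at 24.3 ± 16.4 TPM, and neighbouring groups overlapped at every step.

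Kctd12b, a paralog of Kctd12 at X:153685154 to 153696391 on the minus strand, was low throughout. Its level was 1.78, 5.42, 4.71 and 3.09 TPM in transgene-free wild-type ganglia, 4.46, 2.09 and 2.89 TPM in transgene-free het ganglia, 1.29, 5.92 and 2.32 TPM in MYCN wild-type ganglia and 2.20 and 3.13 TPM in MYCN het ganglia. Tumors had 0.25, 1.65, 1.01 and 0.36 TPM. The highest tumor was above the lowest ganglion library, MYCN wild-type replicate 1, so the tumor and ganglion ranges overlapped. That overlap rests on this library, which is 1 of the 2 that stood apart, and the next lowest ganglion was at 1.78 TPM. Group means were 3.75 ± 1.64 in transgene-free wild-type, 3.18 ± 2.43 in MYCN wild-type, 3.15 ± 1.21 in transgene-free het, 2.67 ± 0.658 in MYCN het and 0.818 ± 0.649 TPM in tumors, and the ganglion groups overlapped one another. Counts behind these levels were 17 to 297 reads a library.

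Kctd8, at chr5:69109285-69341679 on the minus strand, was at the edge of detection in ganglia, with 1 to 48 reads a library. Its level was 0.99, 0.07, 0.31 and 0.35 TPM in transgene-free wild-type ganglia, 0.71, 0.93 and 1.06 TPM in transgene-free het ganglia, 0.07, 0.82 and 1.12 TPM in MYCN wild-type ganglia and 0.40 and 0.28 TPM in MYCN het ganglia. The 2 libraries at 0.07 TPM were those that stood apart. All 4 tumors had 0 reads.

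Kctd16 encodes the subunit linked with sustained responses and lies on chromosome 18, from 40256962 to 40531630 on the plus strand. It had 42.3, 11.6, 23.5 and 24.3 TPM in transgene-free wild-type ganglia and 31.5, 41.6 and 34.9 TPM in transgene-free het ganglia. MYCN wild-type ganglia had 11.4, 23.1 and 20.7 TPM and MYCN het ganglia 32.3 and 35.1 TPM. All 4 tumors had 0 reads, where the 12 ganglia had 68 to 693 reads. The 2 lowest ganglia were again the libraries that stood apart, and the order of group means was that of the receptor genes, at 36.0 ± 5.16, 33.7 ± 2.00, 25.4 ± 12.7, 18.4 ± 6.19 and 0 TPM. With 3 reads a library taken as the limit that a count of 0 allows, Kctd16 was at least 147-fold lower in tumors than in transgene-free ganglia, at least 92.9-fold lower than in MYCN wild-type ganglia and at least 160-fold lower than in MYCN het ganglia. These bounds cover counting error only. Of 7944 genes at 10 TPM or more in each of the 12 ganglia, Kctd16 was the only 1 with 0 reads in all 4 tumors (0.0126%). That cut was chosen after the values were seen, and with a mean ganglion level of 10 TPM in its place there were 7 such genes of 10099 (0.0693%).

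For Kctd8 the same limit gives a level at least 7.22-fold lower in tumors than in transgene-free ganglia, and at least 7.63-fold and 3.73-fold lower than in MYCN wild-type and MYCN het ganglia. These bounds set the tumors against group means, and only 6 of the 7 transgene-free and 2 of the 3 MYCN wild-type libraries were themselves above the limit.

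On the TPM scale Kctd12 was 70.3% ± 8.89 of the 4 genes' sum in ganglia (SD, n = 12, from 59.1% to 86.3%) and 95.6% ± 3.69 in tumors (n = 4, from 91.2% to 99.5%). Kctd16 was 25.9% ± 8.27 in ganglia (9.28% to 37.6%) and 0% in tumors. Without the 2 libraries that stood apart, the ganglion range was 19.65% to 37.6% for Kctd16 and 59.1% to 77.6% for Kctd12. Kctd12b was 3.23% ± 1.94 in ganglia and 4.37% ± 3.69 in tumors, and Kctd8 0.592% ± 0.450 and 0%. The highest Kctd12 share of a ganglion library, 86.3%, was that of transgene-free wild-type replicate 2, and on this scale no ganglion reached the tumors. These shares rest on the length given to each gene, since the length implied by the TPM values of Kctd16 was only 0.196 of that of Kctd12, and in CPM, which scales counts by depth alone, the group means in ganglia were 87.6% to 91.2% for Kctd12 and 5.54% to 8.91% for Kctd16. In CPM the Kctd12 share was 81.8% to 95.6% in the ganglion libraries and 92.9% to 99.6% in tumors, so on that scale the ranges overlapped. The 2 ganglia inside the tumor range were those that stood apart, and the other 10 reached 92.84%, just under the lowest tumor at 92.93%. The 4 Kctd genes summed to 108 ± 22.03 TPM in ganglia and 25.1 ± 16.03 TPM in tumors.

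**Figure D2:**
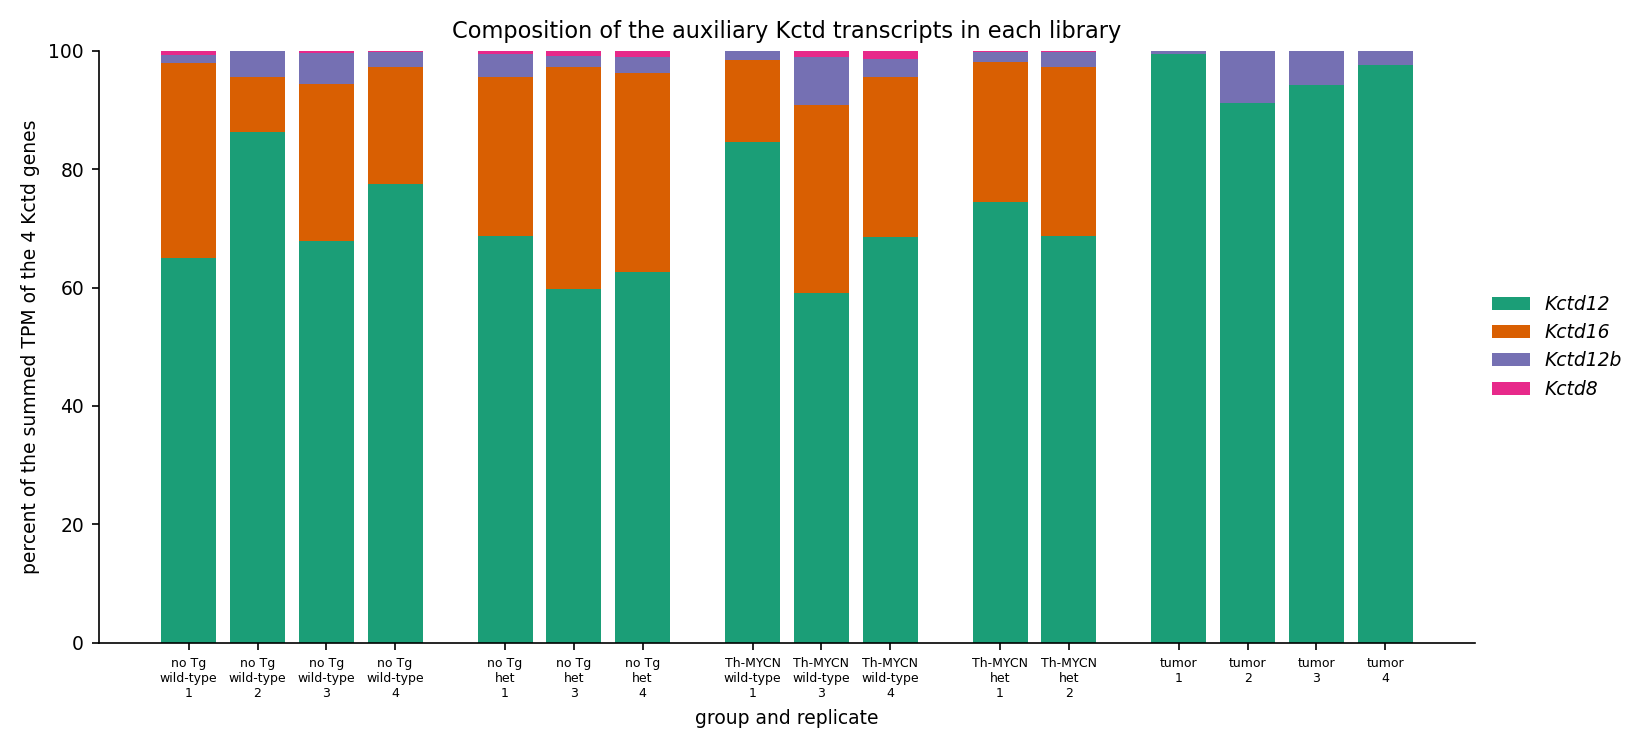
Share of each auxiliary subunit gene in the summed TPM of Kctd8, Kctd12, Kctd12b and Kctd16 (vertical axis, percent), as 1 stacked bar for each of the 16 libraries, ordered by group. The Kctd16 segment is 9.28% to 37.6% of every ganglion bar and missing from the 4 tumor bars, where Kctd12 fills 91.2% to 99.5%.

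Since the neuron markers were themselves lower in tumors, each gene was also read against the summed TPM of the 14 markers. For each 1000 TPM of markers, Gabbr1 was 8 to 11 TPM in the 12 ganglia (9.03 ± 0.799, SD) and 7.78 to 14.4 TPM in the 4 tumors (10.2 ± 3.12), so that the groups overlapped. In the 7 transgene-free ganglia the value kept within 8.31 to 9.41 TPM, the library with lymphocyte markers included, although the Gabbr1 level itself ran from 86.3 to 248 TPM. Gabbr2 read this way was higher in tumors, at 2.77 to 4.90 TPM (3.55 ± 0.997) against 1.43 to 2.47 TPM in ganglia (1.91 ± 0.293), with no overlap. Kctd12 was 4.88 to 12.03 TPM in tumors and 2.40 to 11.3 TPM in ganglia, and the ranges overlapped. Without the 2 libraries that stood apart the other 10 ganglia had 2.40 to 3.82 TPM, all below the tumors. Kctd16 was 0.967 to 1.59 TPM in ganglia (1.37 ± 0.188) and 0 in tumors. Kctd12b was 0.282 ± 0.238 TPM in tumors and 0.192 ± 0.144 TPM in ganglia. Per summed neuron marker TPM, Gabbr1 and Kctd12b thus overlapped between tumors and ganglia. Gabbr2 was higher in tumors and so was Kctd12 once the 2 libraries were left out, while Kctd8 and Kctd16 stayed at 0 there. These readings rest on a sum that weights each marker by its level. Its mean was 21519 TPM in transgene-free ganglia and 3172 TPM in tumors, while the median log2 fold change of the 14 markers was -1.65. In the same fit Gabbr2 was at -1.53, near that median, and Gabbr1 at -2.05, below it. The markers did not all move alike in tumors, so the sum is not a count of neurons. The part of cell makeup in the lower levels was not tested.

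**Figure D3:**
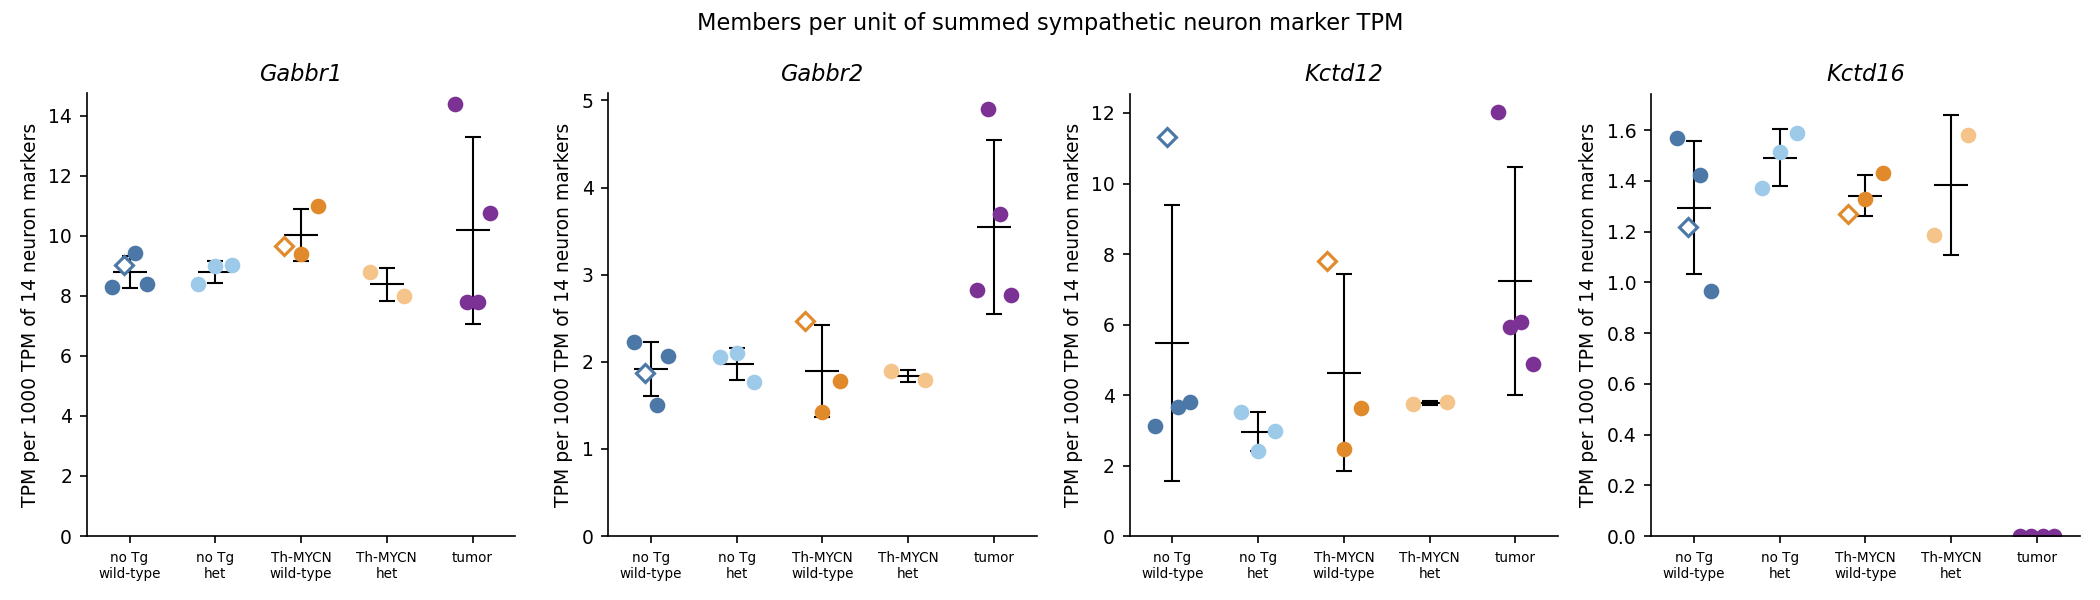
TPM of Gabbr1, Gabbr2, Kctd12 and Kctd16 for each 1000 TPM of 14 sympathetic neuron markers (vertical axes, linear), with 1 point a library in the 5 groups, bars for the mean, lines for the SD and open diamonds for the 2 libraries that stood apart. Gabbr1 overlaps between ganglia (8 to 11) and tumors (7.78 to 14.4), Gabbr2 is higher in the tumors, and Kctd16 is at 0 there.

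Fold changes were fitted to the read counts of all 16665 genes that passed the filter on low counts, which all 6 genes did, Kctd8 and Kctd16 through their ganglion libraries alone. Against transgene-free ganglia (n = 7), tumors (n = 4) had 4.15-fold less Gabbr1 RNA, a log2 fold change of -2.05 with a standard error of 0.32 and a 95% interval from -2.74 to -1.37. Gabbr2 had a log2 fold change of -1.53 (SE 0.29, interval -2.15 to -0.91), Kctd12 of -1.27 (SE 0.33, interval -1.97 to -0.56) and Kctd12b of -1.64 (SE 0.57, interval -2.85 to -0.42). The interval of Kctd12b was the widest of these 4 and those of the 4 genes overlapped one another. All 6 genes were called lower, where 30.9% of all genes tested were called lower and 30.6% higher at an adjusted p under 0.05. The median log2 fold change of the 6 genes was -1.85, beside -0.06 over all genes tested. The members were chosen on this contrast, so nothing is read from that count or from that median. All 6 were also called without the 2 libraries that stood apart. Kctd12b lost its call without tumor replicate 1 or without tumor replicate 4, which leaves 5 genes in each case, and 5 genes were called with only libraries over 20000000 counts.

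Against the MYCN ganglia that share the tumors' genotype (wild-type Runx1t1, n = 3), the fold changes of the receptor pair and of Kctd12 lay nearer 0, a difference between comparisons that was not tested. Gabbr1 had a log2 fold change of -1.61 (SE 0.36, interval -2.38 to -0.85), Gabbr2 of -0.75 (SE 0.33, interval -1.46 to -0.05), Kctd12 of -0.83 (SE 0.38, interval -1.64 to -0.01) and Kctd12b of -1.53 (SE 0.64, interval -2.91 to -0.16). Gabbr1, Kctd8 and Kctd16 were called lower, where 20.5% of all genes were called lower and 14% higher, and as above nothing is read from a count of calls among members chosen on tumor levels. These ganglia include replicate 1, with its dividing-cell markers near those of tumors and a Gabbr1 level of 86.8 TPM, against 163 and 159 TPM in the other 2 libraries. Without the libraries that stood apart, 4 of the 6 genes were called lower. Against MYCN het ganglia (n = 2), Gabbr1 had a log2 fold change of -2.14 (SE 0.39), Gabbr2 of -1.56 (SE 0.36), Kctd12 of -1.45 (SE 0.42) and Kctd12b of -1.21 (SE 0.71, interval -2.74 to 0.31). All but Kctd12b were called lower, where 23.5% of all genes were called lower and 22% higher, again as a description only. The 3 comparisons share the 4 tumor libraries and are not independent of one another.

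**Figure D4:**
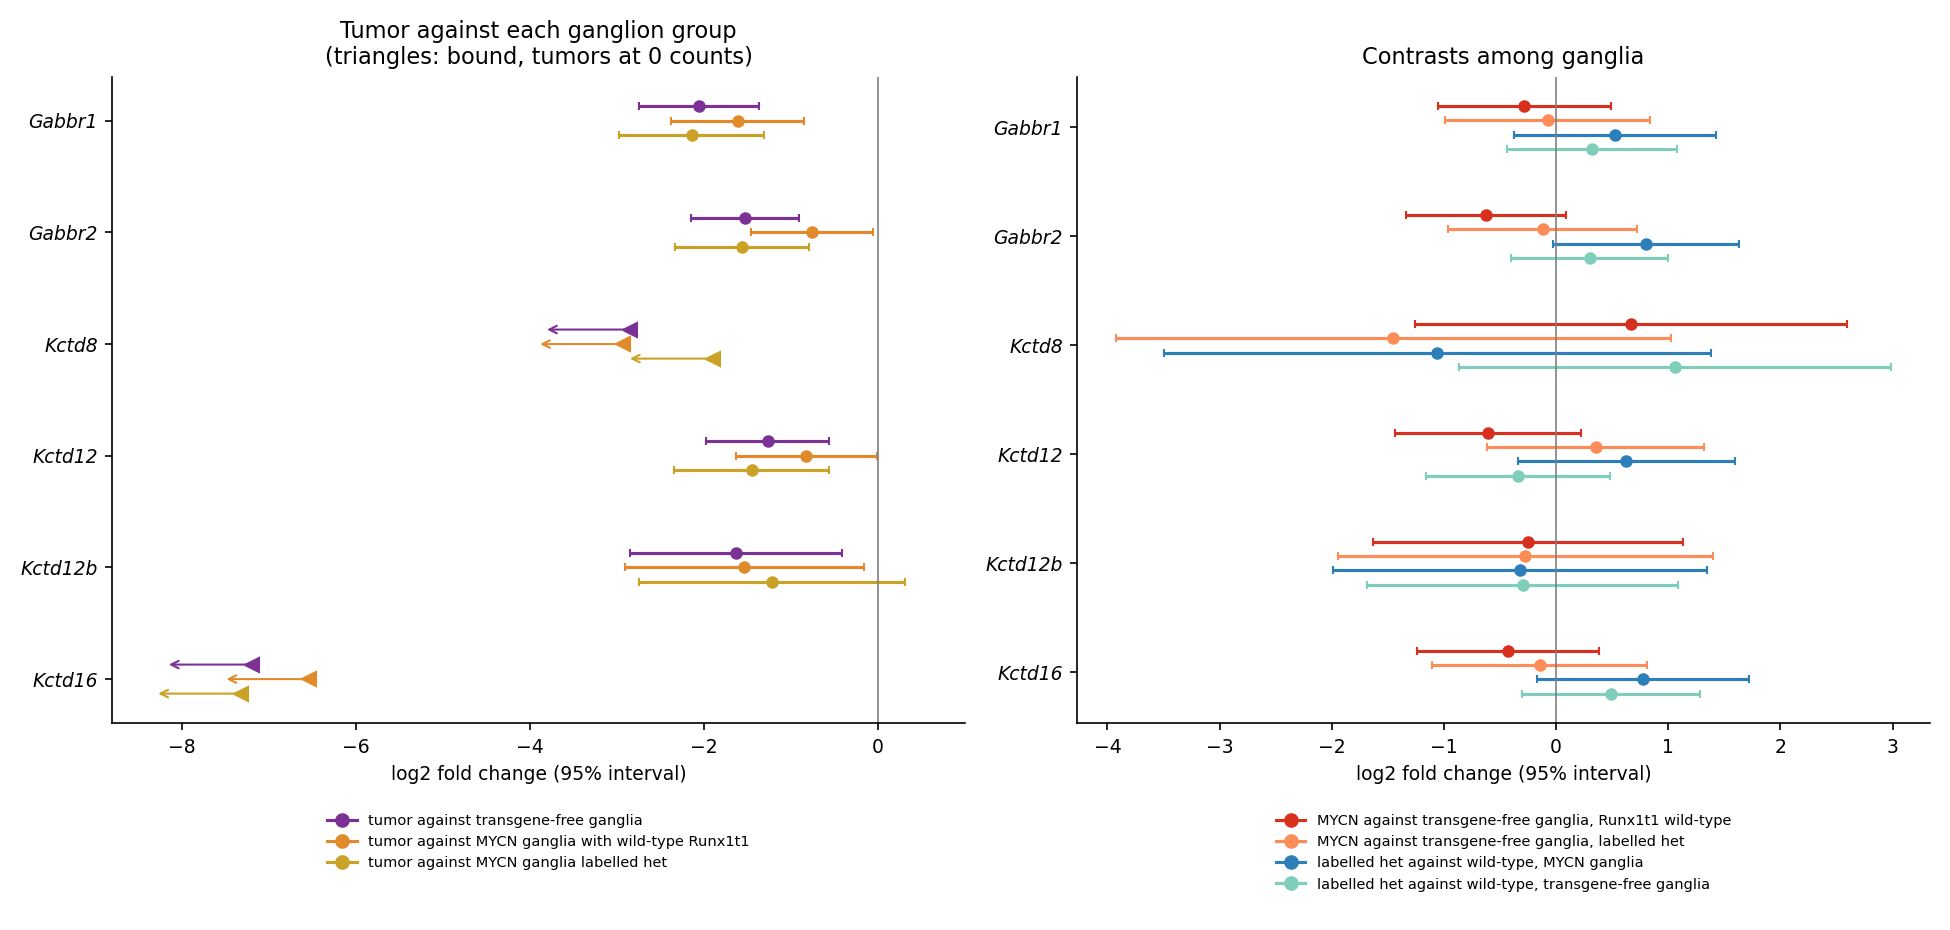
Log2 fold change of the 6 genes (horizontal axis) with 95% intervals, for tumors against each ganglion group at the left and for the 4 contrasts among ganglia at the right. At the left, triangles with arrows mark upper bounds for Kctd8 and Kctd16, which had 0 reads in tumors, and Gabbr1 lies between -2.14 and -1.61. At the right every interval spans 0.

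Among ganglia, the 95% interval of each of the 6 genes included 0 in every contrast of transgene or Runx1t1 label. With wild-type Runx1t1, MYCN against transgene-free ganglia gave log2 fold changes of -0.28 for Gabbr1 (interval -1.05 to 0.49), -0.62 for Gabbr2 (interval -1.34 to 0.09), -0.61 for Kctd12 (interval -1.44 to 0.22) and -0.43 for Kctd16 (interval -1.24 to 0.38). For the low genes the intervals were wide, from -1.64 to 1.13 for Kctd12b and from -1.26 to 2.60 for Kctd8. None of the 6 genes was called, where edgeR called 0.834% of all genes higher and 0.102% lower. In this contrast 3302 genes had an unadjusted p under 0.05. DESeq2 called more genes than edgeR, and the number called varied widely between alternatives, as given under the dependence on processing. In het ganglia the same contrast gave -0.07 for Gabbr1, -0.12 for Gabbr2, 0.35 for Kctd12 and -0.14 for Kctd16, with intervals of -0.99 to 0.84, -0.96 to 0.72, -0.61 to 1.32 and -1.10 to 0.81. Kctd8 was at -1.45 (interval -3.92 to 1.02) and Kctd12b at -0.27 (interval -1.94 to 1.4) in this contrast. edgeR called 0% of all genes in it, DESeq2 called 13, and 242 had an unadjusted p under 0.05.

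Het against wild-type MYCN ganglia was the contrast with the receptor genes farthest from 0. Gabbr1 was at 0.53 (interval -0.38 to 1.43), Gabbr2 at 0.80 (interval -0.03 to 1.64), Kctd12 at 0.63 (interval -0.34 to 1.59) and Kctd16 at 0.78 (interval -0.17 to 1.72) on the log2 scale. Kctd8 and Kctd12b went the other way, at -1.06 (interval -3.50 to 1.38) and -0.32 (interval -1.99 to 1.35). Both het libraries had more Gabbr1, Gabbr2, Kctd12 and Kctd16 TPM than each of the 3 wild-type libraries. Each of these intervals still included 0, and the summed neuron markers lay in the same order, at 22234 and 27208 TPM in the het libraries and 8986, 17411 and 14474 TPM in the wild-type ones. The part of that difference in the values of the 4 genes was not tested. None of the 6 genes was called, and 0.012% of all genes were called by edgeR, with 271 genes called by DESeq2 and 2094 at an unadjusted p under 0.05. In transgene-free ganglia the label gave 0.32 for Gabbr1 (interval -0.44 to 1.08), 0.30 for Gabbr2 (interval -0.40 to 1.00), -0.34 for Kctd12 (interval -1.16 to 0.48) and 0.49 for Kctd16 (interval -0.30 to 1.29), with 0% of all genes called by edgeR, 5 by DESeq2 and 687 at an unadjusted p under 0.05. Kctd8 was there at 1.06 (interval -0.86 to 2.99) and Kctd12b at -0.30 (interval -1.68 to 1.09).

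The difference between the transgene's effect in het and in wild-type ganglia, fitted as an interaction, was 0.21 for Gabbr1 (interval -0.98 to 1.40), 0.50 for Gabbr2 (interval -0.59 to 1.60), 0.96 for Kctd12 (interval -0.31 to 2.23) and 0.28 for Kctd16 (interval -0.96 to 1.53). None of the 6 was called and edgeR called 0% of all genes, with 31 by DESeq2 and 937 at an unadjusted p under 0.05. The upper ends of all 4 intervals are past 1 on the log2 scale, so differences of more than 2-fold lie within them. Kctd8 was at -2.12 (interval -5.245 to 1.005) and Kctd12b at -0.02 (interval -2.17 to 2.13).

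The rest of the pathway was followed with 8 lists of 102 genes, of which 93 passed the filter. Between tumors and transgene-free ganglia, 20 rose, 44 fell and 29 did not pass the test (edgeR, adjusted p under 0.05 over all genes tested), and their median log2 fold change was -0.70. The count is read beside the background of 30.6% higher and 30.9% lower. Rises and falls are those of the fit, whose TMM scaling differs from that of TPM, so small changes can differ between the scales.

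Of 17 Gi/o and G beta-gamma subunit genes 12 fell and 3 rose, with a median of -1.44. Of the 3 that rose, Gng5 and Gng10 were about level in TPM, at 143.1 and 56.95 TPM in transgene-free ganglia and 141 and 57.77 TPM in tumors. Gng12 fell by 3.14 on the log2 scale (SE 0.40, edgeR adjusted p = 1.49e-05). Of 10 presynaptic calcium channel subunit genes 7 fell and 2 rose. Cacna2d3, an alpha2delta subunit, fell from 58.8 ± 21.3 TPM in transgene-free ganglia (SD, n = 7) to 1.62 ± 0.879 TPM in tumors (n = 4), by 4.75 on the log2 scale (SE 0.44, edgeR adjusted p = 1.62e-06), and Cacnb3 fell by 2.15 (SE 0.21, edgeR adjusted p = 2.1e-06), while Cacnb2 rose by 2.82 from a low level (SE 0.57, edgeR adjusted p = 0.00064).

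Of 9 genes for GIRK channels and the RGS proteins that speed their closing, 6 fell and 1 rose, and 5 of the 6 that fell were genes of RGS proteins or their binding partners. Of the 4 channel genes Kcnj6 rose, Kcnj5 fell by 4.11 on the log2 scale from a low level (SE 1.40, edgeR adjusted p = 0.0202), and Kcnj3 and Kcnj9 did not pass, at log2 fold changes of -0.33 (SE 0.52, edgeR adjusted p = 0.602) and -0.39 (SE 0.42, edgeR adjusted p = 0.439). Rgs7, an RGS protein that speeds the end of the G protein signal, fell from 117 ± 31.7 to 11.9 ± 4.49 TPM, by 2.88 on the log2 scale (SE 0.26, edgeR adjusted p = 1.6e-06). Its anchor Rgs7bp fell by 2.16 (SE 0.24, edgeR adjusted p = 4.9e-06). The gene that rose, Kcnj6, encodes the GIRK2 channel subunit and had 0 to 0.61 TPM in transgene-free ganglia and 0.38 to 4.5 TPM in tumors (edgeR adjusted p = 0.000286).

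Of 9 adenylyl cyclase genes 5 fell and 2 rose. Adcy1, a calcium-stimulated cyclase, rose from 25.8 ± 8.59 to 105.1 ± 11.4 TPM, by 2.45 on the log2 scale (SE 0.31, edgeR adjusted p = 1.42e-05), and Adcy2 fell by 2.21 (SE 0.36, edgeR adjusted p = 0.000125). Of 9 genes for proteins that bind or traffic the receptor 4 fell and 1 rose. The gene that rose was Atf4, by 0.33 on the log2 scale (SE 0.13, edgeR adjusted p = 0.045). Its mean TPM was not higher in tumors, at 183.8 TPM against 200.3 TPM in transgene-free ganglia. Jakmip1, which links GABA-B receptors with microtubules, fell from 197 ± 41.6 to 12.4 ± 3.10 TPM, by 3.57 on the log2 scale (SE 0.25, edgeR adjusted p = 3.18e-07).

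In the list for GABA itself 3 genes rose, 1 fell and 2 did not pass of 6 tested, with a median of 0.84. Differences between lists were not tested. Gad2, which makes GABA from glutamate, was 0.42 to 1.01 TPM in the 7 transgene-free ganglia and 10.2 to 37.4 TPM in the 4 tumors, a rise of 5.47 on the log2 scale (SE 0.75, edgeR adjusted p = 2.72e-05). The 3 MYCN wild-type ganglia had 1.32, 4.60 and 36.6 TPM and the 2 MYCN het ganglia 1.76 and 7.17 TPM of Gad2, so every MYCN ganglion lay above every transgene-free one. Slc6a11, a GABA transporter gene, rose by 2.15 (SE 0.29, edgeR adjusted p = 2.79e-05) and Aldh5a1 by 1.19 (SE 0.18, edgeR adjusted p = 6e-05). Abat, the transaminase that breaks GABA down, fell from 141 ± 45.6 to 33.3 ± 3.93 TPM, by 1.67 on the log2 scale (SE 0.24, edgeR adjusted p = 4.29e-05). Of the ionotropic receptor genes 13 of 19 could be tested, with 3 up, 3 down and 7 that did not pass.

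Of 20 other KCTD family genes, which are not GABA-B subunits, 5 rose, 6 fell and 9 did not pass, with a median of -0.21. Kctd15 rose from 16.9 ± 3.74 to 65.1 ± 9.19 TPM, by 2.37 on the log2 scale (SE 0.26, edgeR adjusted p = 4.6e-06), and Kctd11 fell by 2.73 (SE 0.54, edgeR adjusted p = 0.000578).

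Against MYCN wild-type ganglia, 3 of the 93 genes rose and 34 fell in tumors, beside 14% higher and 20.5% lower over all genes. Against MYCN het ganglia 10 rose and 38 fell, beside 22% higher and 23.5% lower. When MYCN wild-type ganglia were set against transgene-free wild-type ganglia, the list genes that passed were Gad2 (log2 fold change 4.88, SE 0.93, edgeR adjusted p = 0.0379), Adcy1 (2.01, SE 0.38, edgeR adjusted p = 0.0379), Kctd15 (1.65, SE 0.32, edgeR adjusted p = 0.0379) and Kcnj6 (edgeR adjusted p = 0.0397), all higher. Kcnj6 was listed at 0 TPM in all 4 transgene-free wild-type libraries and at 1.14 to 4.04 TPM in the 3 MYCN wild-type libraries. All 4 calls were lost with only the groups compared, with only libraries over 20000000 counts, without MYCN wild-type replicate 1 or 4, without both libraries that stood apart and without transgene-free wild-type replicate 1, 3 or 4, with adjusted p up to 0.422. No list gene passed in the other contrasts among ganglia.

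**Figure D5:**
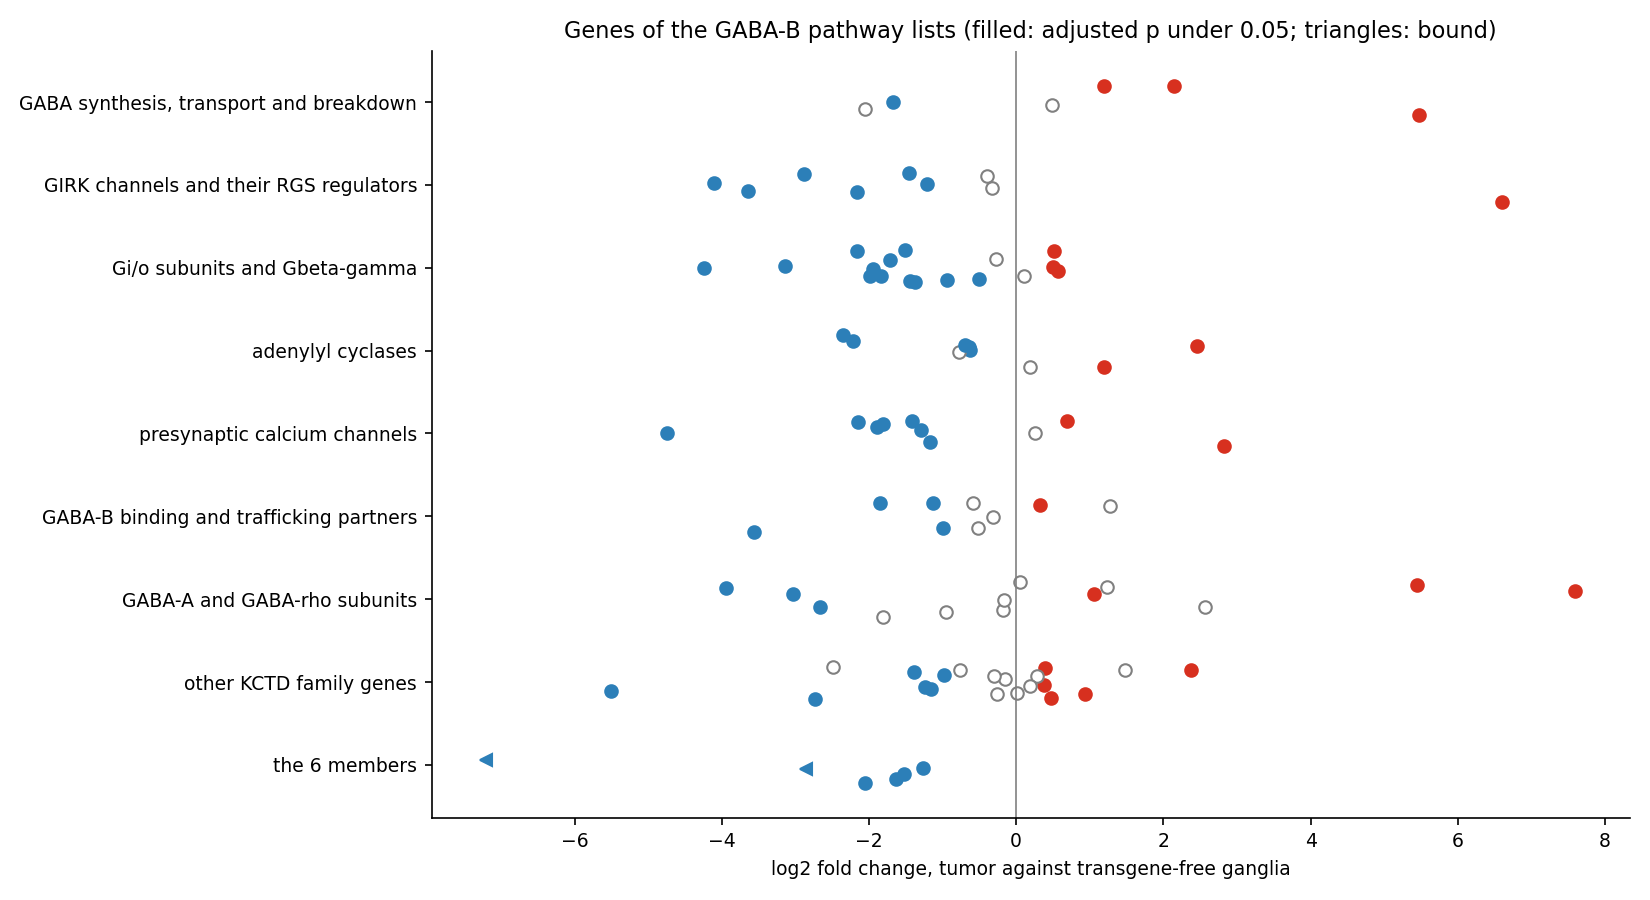
Log2 fold change between tumors and transgene-free ganglia (horizontal axis) for each tested gene of the 6 members and the 8 pathway lists (rows), filled where the adjusted p was under 0.05, with triangles for genes given as a bound. The G protein, calcium channel and GIRK lists lie mostly left of 0, with medians of -1.44, -1.36 and -1.46, and the list for GABA synthesis, transport and breakdown has a median of 0.84.

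Genes most like each member were found among those with the smallest root-mean-square difference of centred log2 CPM over the 16 libraries. For Gabbr1 these were Arl8a (0.129), Aplp1 (0.148) and Ckmt1 (0.153), where Gabbr1 itself varied by 0.999 around its mean. For Gabbr2 they were Hcn2 (0.22), Abat (0.229) and Slc7a14 (0.233), for Kctd12 AI504432 (0.306) and Ogfrl1 (0.318), for Kctd12b Rab32 (0.339), Fcgrt (0.388) and Parp14 (0.397), for Kctd8 Nrxn3 (0.468), Oprk1 (0.506) and Lgi3 (0.511), and for Kctd16 Chrm2 (0.36) and Dkk1 (0.395). Within the 12 ganglia alone none of these genes was among the 3 nearest of its member. Within the ganglia the closest pair of members was Gabbr1 and Kctd16, at 0.226, ahead of Gabbr1 and Gabbr2 at 0.267 and Gabbr2 and Kctd16 at 0.321. Over all 16 libraries Gabbr1 and Kctd16 were 2.29 apart and Gabbr1 and Gabbr2 0.518, since Kctd16 alone of the 3 had 0 reads in tumors.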

How the data were processed

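RNA was sequenced from 16 libraries, as paired-end reads of 100 bases, from total RNA made into libraries with a stranded total RNA kit, although the labels also say polyA RNA. The authors aligned reads with STAR and estimated expected counts and TPM per gene with RSEM on mm10, and deposited 1 table of each. The strand setting of the counting is not given in the sources used here. Header names were matched to samples, with "Hom" read as wild-type Runx1t1. The deposited TPM values were used for levels and the deposited expected counts, rounded to whole numbers, for tests, with no column left unmapped. Human MYCN has no row. Every library's "cell type" label says neuroblastoma, ganglia included.

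The 6 genes and all lists were chosen with earlier results of these data known. Genes with low counts were removed with filterByExpr, TMM factors were computed, and a quasi-likelihood model over all 5 groups was fitted in edgeR 4.0.16 (R 4.3.3, limma 3.58.1), with Benjamini-Hochberg adjustment over 16665 genes and a threshold of 0.05. For members only fold changes, standard errors and 95% intervals are printed. A gene at 0 in a group was set to 3 counts a library for a bound. From each list, for each contrast, up to 3 genes higher and 3 lower with the largest change among those called, with a mean of at least 1 TPM, could be named, and Kcnj3, Kcnj5 and Kcnj9 were added after their values were seen. Likeness used log2 CPM with a prior count of 2, took the 3 nearest genes of each member, and some of these genes are not reported here. The code was tested on simulated data. Alternatives were other normalizations, DESeq2 1.42.0, other filters, a replicate block, a depth term, no Rn45s, only the groups compared and each library left out. The alternatives, ranges included, without the 2 libraries that stood apart and with only libraries over 20000000 counts were added after seeing the data. Gene positions are from GENCODE on GRCm38. Kctd12 overlaps Gm26778 on the opposite strand and Mir5130 on its own, Kctd8 overlaps 8 genes and Kctd16 overlaps 3, so reads from overlapping genes are uncertain.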

Additional observations from a re-analysis of the deposited data

Results flagged for a closer look

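In groups of 4 libraries, 36 sets of values of the members, their sums and ratios were searched for a library far from the other 3 by the 95% critical value of Dixon's test, which chance gives in about 1 set in 20. Of these, 6 were found. Tumor replicate 1 had 48.8 TPM of Kctd12, where the other tumors had 14.9 to 17.0 TPM, and with it a Kctd sum of 49.1 TPM, where the others had 15.3 to 18.7 TPM. For each 1000 TPM of neuron markers the same tumor had 12.03 TPM of Kctd12, where the others had 4.88 to 6.07 TPM. Transgene-free wild-type replicate 2, the library with lymphocyte and myeloid markers, had 11.3 TPM of Kctd12 for each 1000 TPM of neuron markers, where the others had 3.11 to 3.82 TPM. The ratio of its Kctd sum to its Gabbr sum was 1.203, where the others had 0.454 to 0.494. Transgene-free wild-type replicate 3 had the lowest Kctd sum of its group, 88.9 TPM, where the others had 124 to 129 TPM.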

How the results depend on the processing

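The members were chosen on their tumor levels, so nothing is read from how many were called. No member fold change between tumors and ganglia turned its direction under any alternative run. The number of members called lower in tumors against transgene-free ganglia was 6, with 5 to 6 when each library was left out in turn and 4 with at least 10 counts in every library. Against MYCN wild-type ganglia it was 3, with 3 to 4 when a library was left out, 1 with at least 10 counts in every library (Kctd8 and Kctd16 are then not tested) and 5 with a replicate block. Against MYCN het ganglia it was 5, with 4 to 6 when a library was left out, 3 with at least 10 counts in every library and 3 with only the groups compared. Same-numbered libraries did not deviate together (2 of 13 pairs with a correlation over 0.1, from -0.315 to 0.236), so the numbers were not taken as pairs. That check did not set ganglion replicates 1 and 2 against 3 and 4, which differed in depth. In the 5 contrasts among ganglia, 0 members were called under each alternative that could be fitted. Only libraries over 20000000 counts left no MYCN het ganglia. The Kctd shares moved in CPM, as given with them. Over all genes, MYCN wild-type against transgene-free wild-type ganglia gave 156 calls, 0 with the replicate block (Gad2, Adcy1, Kctd15 and Kcnj6 included), 0 with only the groups compared, 675 without transgene-free wild-type replicate 2, 1811 without MYCN wild-type replicate 3, 238 with upper-quartile scaling, 308 with a depth term, 236 without Rn45s and 1289 by DESeq2. Tumors against MYCN wild-type ganglia gave 5755 calls and 3549 without MYCN wild-type replicate 3, and against MYCN het ganglia 7582 and 4313 without MYCN het replicate 1. The cause was not tested. Counts were lowest for Kctd8, at 1 to 48 reads in ganglia and 0 in tumors, and for Kctd12b, at 17 to 297 reads.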
